A study of Mus musculus with 4 samples.

Results

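The VEGF and angiopoietin ligands and receptors were followed in single cells of the hyaloid vessels, the transient blood vessels of the vitreous body. The set was given as a list of 10 names, which were matched to the gene symbols of the deposited table: the VEGF receptors *Flt1*, *Kdr* and *Flt4*, the coreceptors *Nrp1* and *Nrp2*, the Tie receptors *Tek* and *Tie1*, and the ligands *Vegfa*, *Angpt1* and *Angpt2*. All 10 were found among 32285 genes. The study compared mice with and without GPR124 (gene symbol *Adgra2*), a co-receptor of WNT7A and WNT7B, in the endothelium. Control mice (Gpr124 fl/fl) carried loxP-flanked *Gpr124* and no Cre, and knockout mice (Gpr124 dEC/dEC) carried in addition a tamoxifen-dependent Cre under the VE-cadherin promoter, which acts in endothelial cells. Pups of both genotypes received tamoxifen daily from P1 to P4 and were used at P6. Vitreous bodies of 7 Gpr124 fl/fl pups made 1 suspension and those of 9 Gpr124 dEC/dEC pups another, so each genotype counts as 1 sample.

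Cells were measured by SORT-seq, a plate method with 1 sorted cell per well that counts transcripts at their 3' end by unique molecular identifiers (UMIs). The labels give the plates only a replicate number and a library name. By that name, the study's sorting scheme has replicate 1 of each genotype filled through a CD31 gate and replicate 2 through a PDGFRB gate, with some CD31-gate cells in replicate 2 of Gpr124 dEC/dEC. The 4 plates held 51972 to 174645 UMIs of mouse genes in 384 wells each. Of 1536 wells, 32 passed the limits of 1000 to 8000 UMIs and of a mitochondrial share under 10% and had UMIs of exactly 1 of both class markers. Wells with *Cldn5*, a tight junction gene, and no *Pdgfrb* were classed as endothelial cells, and wells with *Pdgfrb*, the PDGF-B receptor of pericytes, and no *Cldn5* as pericytes. There were 11 endothelial cells, 5 from Gpr124 fl/fl and 6 from Gpr124 dEC/dEC, with a median of 3020 UMIs. There were 21 pericytes, 9 from Gpr124 fl/fl and 12 from Gpr124 dEC/dEC, with a median of 3750 UMIs. The study's own selection kept slightly fewer pericytes in all, with equal numbers from each genotype and so more from Gpr124 fl/fl than here. The reason was not found in the sources used here. The classes did not follow the gates. Gpr124 fl/fl replicate 1 gave 2 endothelial cells and 6 pericytes and replicate 2 gave 3 and 3, while Gpr124 dEC/dEC replicate 1 gave 4 and 0 and replicate 2 gave 2 and 12. The plates use the same 384 well barcodes, and for 10 of the 32 cells a well with the same barcode held over 1000 UMIs in another plate.

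Markers that did not choose the classes went with both class names. Summed over 14 endothelial markers without *Cldn5*, endothelial cells had 86.9 (Gpr124 fl/fl) and 126 (Gpr124 dEC/dEC) UMIs per 10000 UMIs of a group, and pericytes 15.6 and 12. Summed over 14 pericyte markers without *Pdgfrb*, pericytes had 177 and 205 and endothelial cells 24.4 and 17.7. Markers of lymphatic endothelium were at 0 in the endothelial cells and markers of astrocytes at 0 in both classes. The targeted *Adgra2* had 3 UMIs in the endothelial cells of Gpr124 fl/fl and 0 in those of Gpr124 dEC/dEC, too few for a difference to be detectable. In pericytes, which the Cre does not target, it had 7 and 17 UMIs.

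VEGF-A made by the surrounding tissue binds VEGFR2 (*Kdr*), the main signalling receptor of blood endothelium, and VEGFR1 (*Flt1*), which binds the ligand tightly and acts largely as a decoy. VEGFR3 (*Flt4*) is the receptor of VEGF-C and VEGF-D and marks lymphatic endothelium and sprouting vessels, and neuropilins present VEGF to these receptors and semaphorins to plexins. Angiopoietin-1, classically made by mural cells, activates Tie2 (*Tek*) and stabilizes vessels, angiopoietin-2 counteracts it in a context-dependent way and is linked to remodelling and regression, and *Tie1* encodes an orphan coreceptor of Tie2.

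*Flt1* and *Kdr* are the VEGF receptors that set the classes apart most clearly, and they lie on chromosome 5 of GRCm38, both on the minus strand, *Flt1* at 147561604 to 147726011 and *Kdr* at 75932827 to 75978458 in the GENCODE annotation. Their proximal promoters are shown because endothelial promoters are known for binding sites of ETS factors, which share the core GGAA. Both runs come from RefSeq's starts on GRCm38.p6, are given 5' to 3' on the gene's own strand from 250 to 11 bases before the start, at chr5:147726022-147726261 and chr5:75978466-75978705, and have GGAA or its reverse complement TTCC in capitals.
Flt1: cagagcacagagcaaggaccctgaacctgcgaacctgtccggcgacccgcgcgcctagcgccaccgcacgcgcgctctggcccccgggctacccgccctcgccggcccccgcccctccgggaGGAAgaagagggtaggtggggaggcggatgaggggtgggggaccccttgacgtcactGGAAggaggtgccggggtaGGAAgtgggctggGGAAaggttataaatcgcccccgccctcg
Kdr: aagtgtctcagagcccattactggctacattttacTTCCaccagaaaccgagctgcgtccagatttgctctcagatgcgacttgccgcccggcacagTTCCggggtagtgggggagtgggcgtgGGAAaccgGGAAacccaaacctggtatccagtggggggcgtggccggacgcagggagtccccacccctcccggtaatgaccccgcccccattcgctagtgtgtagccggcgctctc
Each window holds 4 such cores. Of 32851 promoter windows of the same 240 bases, 92.7% hold at least 1 on either strand and 30.5% hold at least 4. The longer letters CCGGAA, which overlap the core, occur once in the *Kdr* window and not in the *Flt1* window, and in 11.2% of all windows. The letters are a description of these windows and were not tested for binding.

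Across the 32 cells, receptors were found mostly in endothelial cells and *Angpt2* in pericytes, as the plot of single cells shows. At least 1 UMI of a VEGF receptor was present in 11 of 11 endothelial cells (exact binomial 95% interval 71.5% to 100%) and in 9 of 21 pericytes (42.9%, 21.8% to 66.0%). At least 1 UMI of a Tie receptor was present in 10 of 11 endothelial cells and in 9 of 21 pericytes. *Flt1* and *Kdr* occurred together in 7 endothelial cells, and *Tek* and *Tie1* together in 6. In pericytes neither pair occurred together in any cell. A neuropilin was found in 4 of 11 endothelial cells and 10 of 21 pericytes. The binomial intervals take the cells as independent draws, although they come from 1 suspension per genotype. Intervals below cover counting error only.

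**Figure D1:**
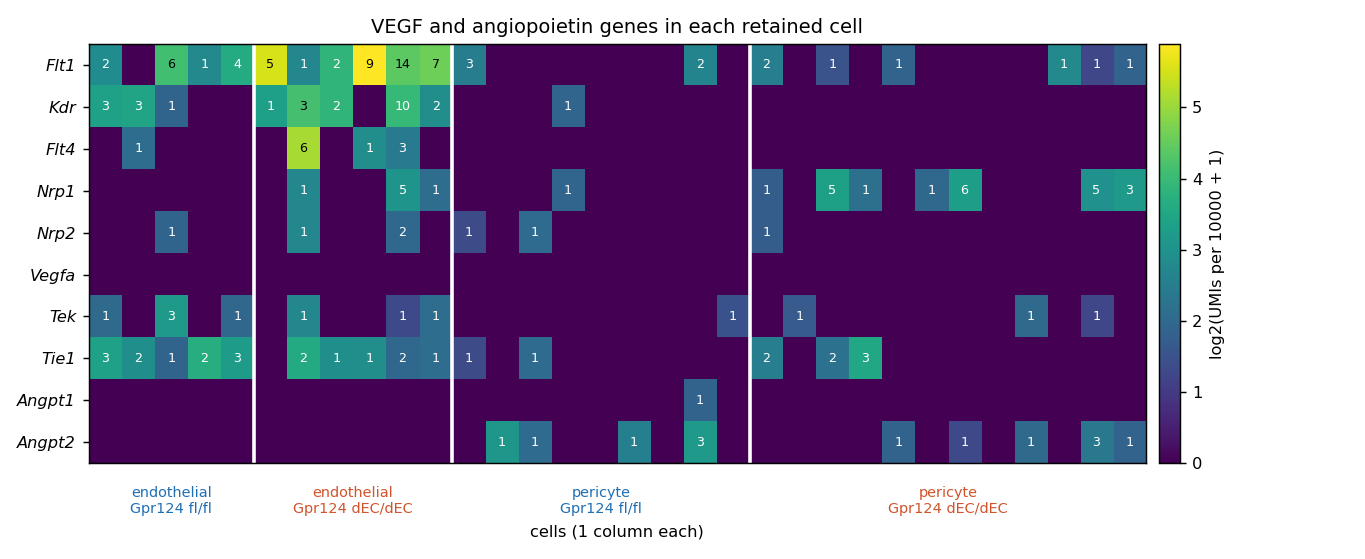
UMIs of each gene (rows) in each retained cell (columns, by class and genotype). Numbers are UMIs, with none printed where a cell had 0, and colour is log2 of UMIs per 10000 plus 1. *Flt1* was found in 10 of 11 endothelial cells and 8 of 21 pericytes, and *Angpt2* in 9 pericytes and no endothelial cell.

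*Flt1* and *Tie1* were each found in 10 of 11 endothelial cells, and *Flt1* had more UMIs. In endothelial cells of Gpr124 fl/fl the UMI counts were 2 and 0 in replicate 1 and 6, 1 and 4 in replicate 2, and in those of Gpr124 dEC/dEC they were 5, 1, 2 and 9 in replicate 1 and 14 and 7 in replicate 2. In pericytes the counts ran from 0 to 3, and 13 of 21 cells had none. Summed per plate, endothelial cells had 3.21, 12.3, 28.7 and 21.1 UMIs per 10000 (Gpr124 fl/fl replicates 1 and 2, then Gpr124 dEC/dEC replicates 1 and 2). Pericytes had 1.67, 1.42 and 1.45 (Gpr124 fl/fl replicates 1 and 2 and Gpr124 dEC/dEC replicate 2). All endothelial sums lay above all pericyte sums, which was so for 5.69% of 2689 genes with at least 10 UMIs. After each cell was thinned to 1000 UMIs, 72.5% of endothelial cells and 12.9% of pericytes still had a *Flt1* UMI, against 90.9% and 38.1% before.

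The classes were compared over these 7 sums per class and plate with edgeR's quasi-likelihood test and Benjamini-Hochberg adjustment over all genes tested. edgeR's expression filter left 148 genes, and *Flt1* was the 1 member among them. It was higher in endothelial cells by 2.97 on the log2 scale (SE 0.60, adjusted p = 5.03e-06). Of the 148 genes 34.5% passed the threshold of 0.05, 10.1% higher and 24.3% lower in endothelial cells, so the call by itself is common in this table. Without Gpr124 dEC/dEC replicate 2 the difference was 2.64 (SE 0.98, edgeR adjusted p = 0.066), and without Gpr124 dEC/dEC replicate 1 *Flt1* did not pass the filter. Counts are per gene, so the soluble form of VEGFR1, which ends at an earlier polyadenylation site, cannot be told apart from the membrane form.

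*Kdr* was found in 8 of 11 endothelial cells and in 1 pericyte. Endothelial cells of Gpr124 fl/fl had 3 and 3 UMIs in replicate 1 and 1, 0 and 0 in replicate 2, and those of Gpr124 dEC/dEC had 1, 3, 2 and 0 in replicate 1 and 10 and 2 in replicate 2. The plate sums were 9.64, 1.12, 10.1 and 12.1 UMIs per 10000 in the order given above, so the sum of Gpr124 fl/fl replicate 2 stood below the others. Pericytes had 1 UMI in all, in Gpr124 fl/fl replicate 1. The ratio of endothelial cells to pericytes over all UMIs (25 against 1) was 6.02 on the log2 scale, with a counting interval from 3.41 to 11.4. In a fit without the expression filter (10829 genes, of which 2.20% passed, 0.462% higher and 1.74% lower in endothelial cells), *Kdr* was higher in endothelial cells by 4.53 (SE 1.0, adjusted p = 0.00094), and *Flt1* by 2.54 (SE 0.62, adjusted p = 0.0043).

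*Flt4* lies on chromosome 11 at 49609263 to 49652739 (plus strand). It was found in 4 endothelial cells, with 1 UMI in Gpr124 fl/fl and 6, 1 and 3 UMIs in Gpr124 dEC/dEC, and in 0 of 21 pericytes. Against a floor of 3 UMIs over the pericytes the endothelial level was 9.5-fold higher, and the exact lower limit of the ratio was 6.50. Its endothelial plate sums were uneven, at 1.61, 0, 11.8 and 3.02 UMIs per 10000 in the order given above. The sum of Gpr124 fl/fl replicate 2 thus did not lie above the pericytes. In the fit without the filter *Flt4* was higher by 5.0 (SE 1.45, adjusted p = 0.031). The lymphatic markers *Prox1*, *Lyve1* and *Pdpn* were among those at 0 in these cells.

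The Tie receptors had the same order of classes without passing the test. *Tie1* (chromosome 4, 118471191 to 118490061) was found in 10 of 11 endothelial cells at 1 to 3 UMIs, and in 5 of 21 pericytes. Its plate sums were 8.03, 6.70, 6.75 and 3.02 UMIs per 10000 in endothelial cells and 1.11, 0 and 1.45 in pericytes. *Tek* (chromosome 4, 94739289 to 94874976) was found in 6 endothelial cells, with sums of 1.61, 4.46, 1.69 and 2.01, and in 4 pericytes, with sums of 0, 0.709 and 0.620. Endothelial sums lay above pericyte sums for both genes, as they did for 5.69% of 2689 genes with at least 10 UMIs. The pooled ratio was 5.18 for each of them, with lower counting limits of 2.21 for *Tie1* and 1.39 for *Tek*. Without the filter, edgeR gave 1.56 for *Tie1* (SE 0.76, adjusted p = 0.44) and 1.43 for *Tek* (SE 1.07, adjusted p = 0.57).

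*Nrp1* was found in both classes. Its 30 UMIs comprised 7 in 3 endothelial cells and 23 in 8 pericytes, which is 2.25 (Poisson 95% interval 0.906 to 4.65) and 2.86 (1.81 to 4.29) per 10000. The plate sums were uneven, at 0, 0, 1.69 and 6.04 in endothelial cells and 0.555, 0 and 4.55 in pericytes, in the order given above. Without Gpr124 dEC/dEC replicate 2 the levels were 0.474 and 0.311. *Nrp2* had 4 UMIs in 3 endothelial cells and 3 UMIs in 3 pericytes. Neither differed between the classes in the fit without the filter (log2 -0.92, SE 0.80, adjusted p = 0.57 for *Nrp1*, and 0.75, SE 1.29, adjusted p = 0.74 for *Nrp2*). The standard errors leave room for differences of either sign.

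Of the ligands, *Angpt2* alone was found in more than 1 cell. Its 13 UMIs lay in 9 pericytes, 4 of Gpr124 fl/fl with 1, 1, 1 and 3 and 5 of Gpr124 dEC/dEC with 1, 1, 1, 3 and 1. Pericyte sums were 1.67, 2.13 and 1.45 per 10000, and the 4 endothelial sums were 0, below every pericyte sum, which held for 12.7% of 2689 genes. Against the floor of 3 UMIs over the endothelial cells the pericyte level was 1.67-fold higher, and the exact lower limit was 1.18. The fit without the filter gave -4.72 (SE 1.62, adjusted p = 0.12). *Angpt2* (chromosome 8, 18690263 to 18741562, minus strand) overlaps *Mcph1* on the other strand, which had 0 UMIs in both classes.

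*Angpt1* had 1 UMI in the 32 cells, in a Gpr124 fl/fl pericyte that also had 3 UMIs of *Angpt2*. *Vegfa* had 0 UMIs in 32 cells, where the floor of 3 UMIs stands for 0.966 per 10000 in endothelial cells and 0.373 in pericytes. The exact Poisson upper limits are 1.19 and 0.458. At this depth low levels of *Vegfa* and *Angpt1* were not detectable.

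**Figure D2:**
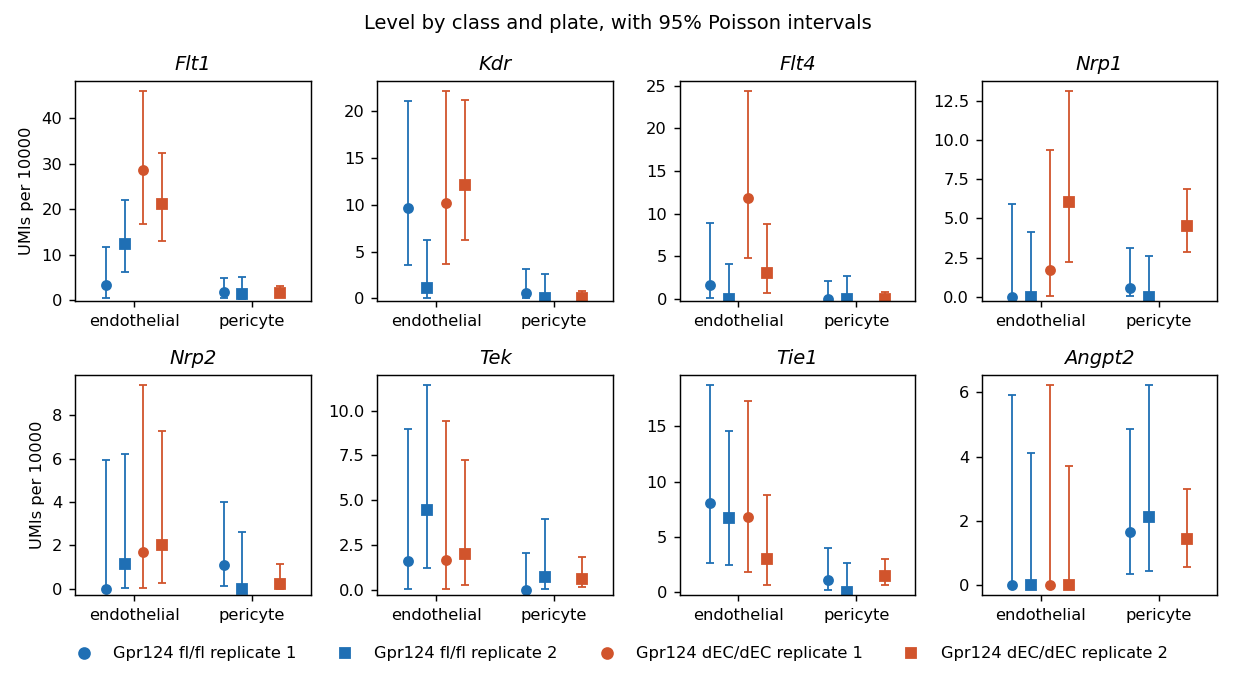
UMIs per 10000 for each class and plate, with exact Poisson 95% intervals, for the 8 genes other than *Vegfa* and *Angpt1*. Colours are genotypes and shapes plates. *Flt1*, *Kdr*, *Tek* and *Tie1* have every endothelial sum above every pericyte sum, and *Angpt2* the reverse. Of 2689 genes with at least 10 UMIs, 5.69% had the first order and 12.7% the reverse. For *Kdr* and *Tek* the closest sums of the classes rest on 1 UMI each.

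Wells under 1000 UMIs, 1478 in number with 225601 UMIs, give the level of the same genes outside the selected cells. *Flt1* had 0.887 UMIs per 10000 there (0.542 to 1.37), *Kdr* 0.754, *Tek* 0.532 and *Tie1* 1.99 (1.45 to 2.67). The pericyte levels of these receptors, 1.49 (0.771 to 2.61), 0.124, 0.497 and 1.12 (0.511 to 2.12), lay near or below these values. Whether the pericytes express these receptors therefore cannot be told from their share with a receptor UMI. In wells over 8000 UMIs with *Pdgfrb*, *Flt1* had 1.44 per 10000 in Gpr124 fl/fl and 3.20 in Gpr124 dEC/dEC. *Tie1* had 0 and 3.94 there. Endothelial levels, 16.4, 8.05, 2.58 and 5.80, were above those of the wells under 1000 UMIs. *Angpt2* had 0.177 in these wells (0.0483 to 0.454), below its pericyte level of 1.62 (0.860 to 2.76). *Nrp1* had 0.931 (0.576 to 1.42), below the 4.55 of Gpr124 dEC/dEC pericytes (2.85 to 6.89). The 0.311 of Gpr124 fl/fl pericytes rests on 1 UMI, and its interval (0.00788 to 1.74) includes the level of the wells under 1000 UMIs. These wells can hold cells of either class that gave few UMIs as well as no cell, so they are not a pure background.

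Other genes of both pathways came from 4 lists. None of their genes passed edgeR's filter, so the counts are from the fit without it, in which the median log2 difference over all genes was -1.15. Genes with a single UMI enter these medians, such as *Rcan1* (1 UMI in an endothelial cell, log2 1.92). The median of a list is therefore not read as a shift between the classes. Of 18 receptor partners and signalling genes 16 were tested, with a median of 0.75, and 2 were higher in endothelial cells. They were *Cdh5*, the adherens junction cadherin that partners VEGFR2 (42 UMIs against 1, log2 5.30, SE 0.91, adjusted p = 3.06e-06), and *Ptprb*, the phosphatase VE-PTP that acts on Tie2 (21 against 1, log2 4.31, SE 1.04, adjusted p = 0.0039). Of 12 VEGF-responsive genes 11 were tested, with a median of 1.92, and 1 was higher, *Aplnr*, the apelin receptor (17 against 1, log2 4.01, SE 1.09, adjusted p = 0.017). Of 12 semaphorins and plexins 6 and of 9 other VEGF and angiopoietin ligands 5 were tested, and 0 of either list passed the edgeR threshold in either direction (2 semaphorins or plexins higher and 1 lower, and 0 other ligands, at an unadjusted p under 0.05). The share of all genes at that unadjusted threshold was not computed, so these counts are not read as a class difference. Of the 10 members 9 were tested, with a median of 1.43, and 3 were higher in endothelial cells. Of all 10829 genes in this fit, 0.462% were higher in endothelial cells. That share includes genes with a single UMI, so it is not a share at the depth of the called genes.

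Over the 32 cells, the genes most like *Flt1* among 617 with at least 30 UMIs were *Slc7a5* (r = 0.81), *Col18a1* (r = 0.80) and *Slc2a1* (r = 0.80), by Pearson's r of log-scaled levels. The first and last encode an amino acid and a glucose transporter of barrier endothelium and *Col18a1* a basement membrane collagen. Their UMIs lay in endothelial cells with few exceptions (41 of 43, 47 of 48 and 84 of 86). For *Nrp1* they were *Nkd1* (r = 0.56), *Rbms3* (r = 0.56) and *Tbxa2r* (r = 0.50), whose UMIs were mostly in pericytes (28 of 30, 35 of 36 and 30 of 30). These values share the classes, plates and depth of the cells and describe them only.

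The comparison of the genotypes asks how endothelial loss of *Gpr124* goes with these receptors. With 1 suspension per genotype no test is possible, and the ratio of pooled levels is given with an exact counting interval. In endothelial cells all 3 VEGF receptors and *Nrp1* had more UMIs in Gpr124 dEC/dEC, and both Tie receptors had fewer. Of the 4 members with at least 10 UMIs (*Flt1*, *Kdr*, *Flt4* and *Tie1*), 2 had an interval that left out equal levels, both higher in Gpr124 dEC/dEC. Among 538 genes of that depth, 11.7% had such an interval, 7.06% higher in Gpr124 dEC/dEC and 4.65% higher in Gpr124 fl/fl. The other endothelial markers were not level either. Without *Cldn5*, their sum was 132 UMIs (13 of 14 genes found) in Gpr124 fl/fl and 200 (12 of 14) in Gpr124 dEC/dEC, a log2 ratio of -0.54 (-0.86 to -0.21). Of the 14 genes 9 had more UMIs in Gpr124 dEC/dEC, such as *Cdh5* with 13 and 29, and 4 had fewer. Their part in the receptor ratios was not tested.

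*Flt1* stood at 8.56 UMIs per 10000 in Gpr124 fl/fl (4.56 to 14.6) and 24 in Gpr124 dEC/dEC (17.0 to 32.9), a log2 ratio of Gpr124 fl/fl over Gpr124 dEC/dEC of -1.48 (-2.52 to -0.54). Between the replicate 1 plates the ratio was -3.16 (-6.32 to -1.08) and between the replicate 2 plates -0.78 (-1.98 to 0.33). Both plate sums of Gpr124 dEC/dEC lay above both of Gpr124 fl/fl. The share of all genes with this order was not computed, and the plates of a genotype come from 1 suspension. *Flt1* was found in 4 of 5 and in 6 of 6 cells, and after thinning to 1000 UMIs in 53.9% and 88.0%. Single cells overlapped, from 0 to 6 UMIs in Gpr124 fl/fl and from 1 to 14 in Gpr124 dEC/dEC. Without Gpr124 fl/fl replicate 1 the ratio was -0.96 (-2.08 to 0.03), and the interval then held equal levels.

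Of *Flt4*, 1 UMI came from Gpr124 fl/fl and 10 from Gpr124 dEC/dEC, 0.659 and 6.30 per 10000, a log2 ratio of -3.26 (-8.70 to -0.45). Of the 10 UMIs, 6 came from 1 cell of replicate 1. The interval held equal levels between the replicate 1 plates (-2.88, -8.37 to 0.08), without Gpr124 fl/fl replicate 2 (-1.97, -7.41 to 0.84), without Gpr124 dEC/dEC replicate 1 (-2.20, -7.91 to 1.44) and with a mitochondrial share under 5% (-2.75, -8.19 to 0.06).

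*Kdr* had 7 and 18 UMIs, 4.61 and 11.3 per 10000, and its interval included equal levels (-1.30, -2.80 to 0.03). The plates disagreed: between the replicate 1 plates the UMIs were 6 and 6 (-0.07, -1.98 to 1.83), and between the replicate 2 plates 1 and 12 (-3.43, -8.85 to -0.68). The interval left out equal levels with a minimum of 500 UMIs (-1.41, -2.91 to -0.08) and with spike-ins counted in the totals (-1.36, -2.86 to -0.04). It also did so with class by marker lists (-1.46, -2.94 to -0.17) and without Gpr124 fl/fl replicate 1 (-3.35, -8.73 to -0.68). With class by plate the ratio was -2.16 (-3.82 to -0.57). That setting counts every retained replicate 1 well as endothelial, among them 6 pericytes in Gpr124 fl/fl and 0 in Gpr124 dEC/dEC. The endothelial cells of Gpr124 fl/fl replicate 2 also held 233 UMIs of 9 erythroid genes (4 of 9 found), 260 per 10000, against 0 to 11.8 in the endothelial cells of the other plates, and its part in the *Kdr* and *Flt1* ratios was not tested. *Nrp1* had 0 UMIs in 5 endothelial cells of Gpr124 fl/fl and 1, 5 and 1 in 3 of 6 cells of Gpr124 dEC/dEC. Against the floor its level was 2.23-fold higher in Gpr124 dEC/dEC, with an exact lower limit of 1.38. Without the cell with the most UMIs in each group, 0 and 2 *Nrp1* UMIs were left.

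Of *Tie1*, 11 UMIs came from Gpr124 fl/fl and 7 from Gpr124 dEC/dEC, 7.24 and 4.41 per 10000 (log2 0.72, -0.78 to 2.32). *Tek* had 5 and 3 (log2 0.80, -1.56 to 3.49), and *Nrp2* 1 and 3 (log2 -1.52, -7.24 to 2.12). All 3 intervals included equal levels and reached beyond 4-fold in at least 1 direction. *Cldn5*, the gene that chose these cells, had 40 and 28 UMIs (log2 0.58, -0.15 to 1.33).

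**Figure D3:**
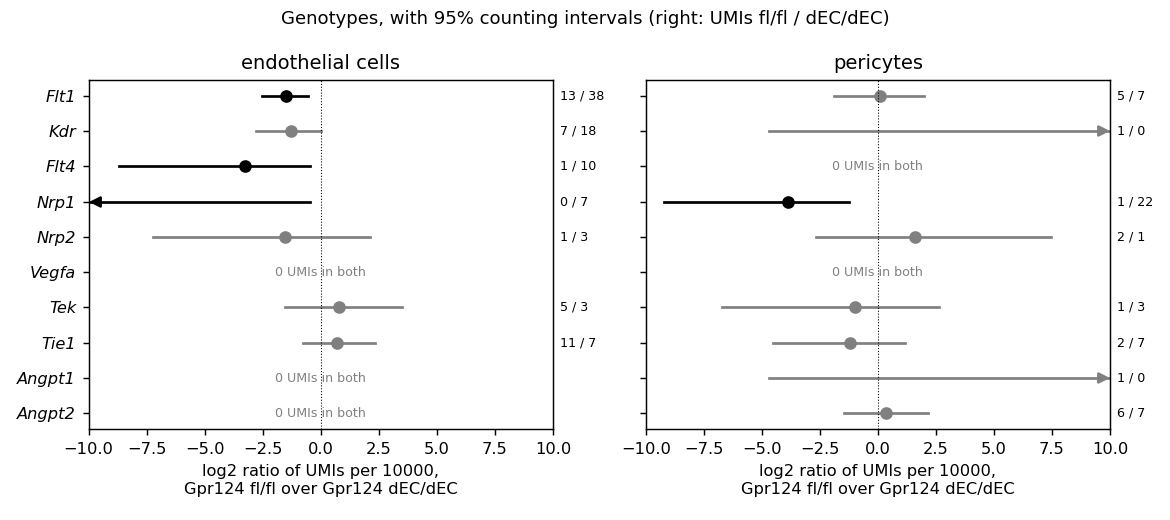
Log2 ratio of UMIs per 10000 of Gpr124 fl/fl over Gpr124 dEC/dEC for each gene in endothelial cells and pericytes, with 95% counting intervals. Values below 0 are higher in Gpr124 dEC/dEC, arrows mark a group with 0 UMIs, and black marks intervals that leave out equal levels. The numbers beside each panel are the UMIs of both genotypes in that order, such as 13 and 38 for *Flt1* in endothelial cells.

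In pericytes *Nrp1* was the 1 member of 3 with at least 10 UMIs whose interval left out equal levels, among 1915 genes of that depth of which 6.74% had such an interval, 3.86% higher in Gpr124 dEC/dEC and 2.87% higher in Gpr124 fl/fl. *Nrp1* had 1 UMI in 9 cells of Gpr124 fl/fl and 22 UMIs in 12 cells of Gpr124 dEC/dEC, of which 7 had 1, 5, 1, 1, 6, 5 and 3. The levels were 0.311 (0.00788 to 1.74) and 4.55 (2.85 to 6.89) per 10000, a log2 ratio of -3.87 (-9.24 to -1.24). Pericytes of Gpr124 dEC/dEC came from replicate 2 alone. Against the 3 pericytes of Gpr124 fl/fl replicate 2 the UMIs were 0 and 22, with an upper limit of the log2 ratio of -0.68.

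The *Nrp1* ratio depends on how 3 wells are classed. In Gpr124 fl/fl 3 wells had UMIs of both class markers, with 1 *Cldn5* UMI each beside 6, 9 and 4 of *Pdgfrb*. Their pericyte markers summed to 104, 101 and 55 UMIs and their endothelial markers to 13, 5 and 1. They held 4, 3 and 3 UMIs of *Nrp1*, 6.80 per 10000 together. With these 3 wells counted as pericytes, *Nrp1* had 11 and 22 UMIs, and the log2 ratio was -0.95 (-2.14 to 0.15). Gpr124 dEC/dEC had 0 wells of this kind. Wells over 8000 UMIs with *Pdgfrb* held 3 UMIs of *Nrp1* in 3 wells of Gpr124 fl/fl and 15 in 5 wells of Gpr124 dEC/dEC (log2 -1.77, -4.20 to 0.05). Over all pericytes, both-marker wells and these wells, 14 and 37 UMIs gave -1.15 (-2.15 to -0.23). This last pooling was chosen after the values were seen.

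**Figure D4:**
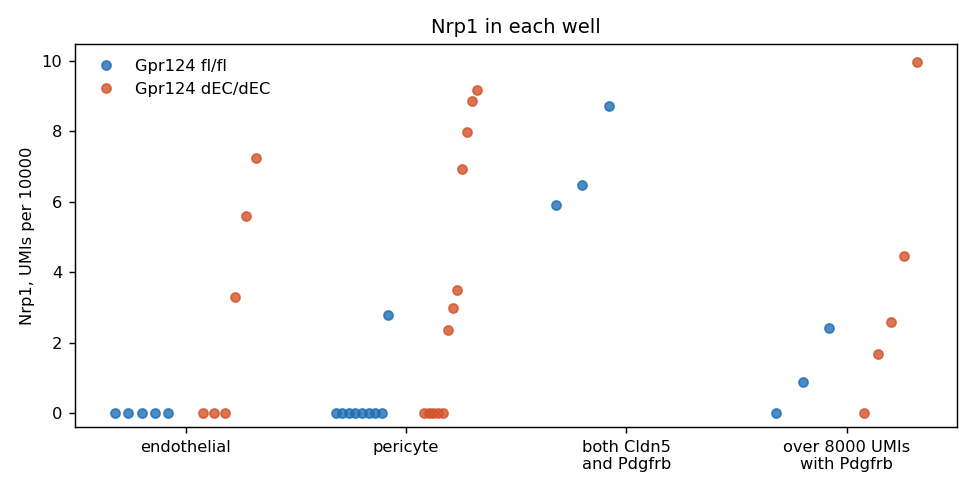
*Nrp1* in UMIs per 10000 in each endothelial cell, each pericyte, each well with both markers and each well over 8000 UMIs with *Pdgfrb*, by genotype. The 3 both-marker wells of Gpr124 fl/fl, with 4, 3 and 3 UMIs, lie within the range of the *Nrp1*-positive pericytes of Gpr124 dEC/dEC.

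In the pericytes of Gpr124 dEC/dEC 12 dissociation-induced genes summed to 29.2 UMIs per 10000, against 11.1 and 13.5 in replicates 1 and 2 of Gpr124 fl/fl, and 64 of the 141 UMIs lay in 1 cell that had 5 of *Nrp1*. Macrophage markers had 17 UMIs there (8 of 13 genes found, 12 of the UMIs in 1 cell without *Nrp1*) and 0 in the pericytes of Gpr124 fl/fl. The part of either in the *Nrp1* values was not tested. *Pdgfrb* itself, which chose these cells, had 40 and 95 UMIs (log2 -0.66, -1.23 to -0.11).

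The intervals of the other members in pericytes included equal levels. *Angpt2* had 6 and 7 UMIs (log2 0.37, -1.48 to 2.17) and *Flt1* 5 and 7 (log2 0.11, -1.89 to 1.98). *Tie1* had 2 and 7 (log2 -1.22, -4.52 to 1.18). With no maximum on UMIs *Tie1* had 2 and 23, and its interval left out equal levels (-2.95, -6.08 to -0.94), with 10 of the UMIs in 1 well. Over retained pericytes, both-marker wells and wells over 8000 UMIs with *Pdgfrb* together, the *Tie1* ratio was -3.27 (-6.40 to -1.25). With only the both-marker wells added to the retained pericytes, the *Tie1* interval included equal levels (-1.76, -5.06 to 0.63). *Tek* had 1 and 3 UMIs, *Nrp2* 2 and 1, *Kdr* 1 and 0 and *Angpt1* 1 and 0. *Flt4* and *Vegfa* were at 0 in both. For these members, the intervals over the retained pericytes allow differences of over 2-fold in both directions.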

How the data were processed

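The authors aligned SORT-seq reads to GRCm38 with STARsolo 2.7.11b, per the submitters' processing notes, and deposited an estimated count of UMIs for each gene in each well, unscaled. These were rounded to whole UMIs here. Totals, without 92 spike-ins, were multiplied to match the highest plate median before the limits of 1000 and 8000 UMIs and 10% over 13 mitochondrial genes. No doublet caller was run on 32 cells. Sums per class and plate were fitted with edgeR 4.0.16 (glmQLFit, TMM, filterByExpr) on limma 3.58.1 and R 4.3.3, with DESeq2 1.42.0 as an alternative. Both class sums of a plate come from 1 suspension, so plate was tried as a replicate block (correlation of their deviations over 148 genes -0.079, 0.076 and 0.084 in 3 plates). Plates of 1 suspension are technical, so p-values measure the spread between plates and not between mice. The main class model had no term for genotype or gate, so that spread includes differences between genotypes and between gates. Genotype intervals are exact and at 95%, and the floor was 3 UMIs over a group. Named genes were the members, up to 3 called genes per pathway list and direction, the 3 genes most like each member with at least 30 UMIs, the class markers and the targeted gene. *Prox1*, *Lyve1*, *Pdpn* and *Mcph1* were named after their values were seen. Members and lists were chosen with earlier results of these data known. Scripts were tested on simulated data, with Python 3.11.15, numpy 2.4.6, scipy 1.17.1, pandas 2.3.3 and matplotlib 3.10.9. Gene positions are from GENCODE M21.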

Additional observations from a re-analysis of the deposited data

Results flagged for a closer look

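Among the endothelial sums of 4 plates, *Tek* in Gpr124 fl/fl replicate 2 stood apart at 4.46 UMIs per 10000, above 1.61, 1.69 and 2.01 in the other plates. Chance gives such a flag in about 1 in 20 groups, and its counting interval is wide at 4 UMIs.

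Members were also found in wells that the comparisons did not use. The 3 wells with both class markers held 10 UMIs of *Nrp1*. The 7 wells with neither marker held 7 UMIs of *Kdr*, in 3 wells. The 11 wells over 8000 UMIs held 17 UMIs of *Flt1*, 19 of *Nrp1*, 19 of *Tie1*, 4 of *Angpt1* and 20 of *Angpt2*. The 1478 wells under 1000 UMIs held 20 UMIs of *Flt1*, 17 of *Kdr*, 7 of *Flt4*, 21 of *Nrp1*, 13 of *Nrp2*, 7 of *Vegfa*, 12 of *Tek*, 45 of *Tie1* and 4 of *Angpt2*.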

How the results depend on the processing

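The limits are few cells, single suspensions and low counts, so a member with under 10 UMIs could show only large differences. Of the class comparison's members, 1 was called among 51 genes. The count of members was 3 of 238 genes without a filter on low counts and 0 with no maximum, no scaling of plates, spike-ins counted or class by marker lists (13 genes called), in which *Flt1* did not pass the expression filter, and 0 members and 0 of 569 genes with class by plate (7 genes and 0 members at an unadjusted edgeR p under 0.05, *Flt1* 1.22, adjusted p = 1.0, and the cause was not tested). It ranged from 0 to 2 members and from 32 to 54 genes when 1 plate was left out, and *Kdr* was the second member called without Gpr124 fl/fl replicate 2 (5.23, adjusted p = 1.35e-05). With plate as a replicate block 1 member and 46 genes were called and *Flt1* differed by 2.71 (SE 0.73, adjusted p = 0.0014), so the block changed no member's call. DESeq2 gave 3.03 for *Flt1* and 36 genes. No paired analysis between the genotypes was possible because their comparison rests on intervals and no test.

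In endothelial cells 2 members had an interval without equal levels. The count was 1 with a mitochondrial share under 5%, without the cell with the most UMIs in each group, with cells thinned to 1000 UMIs (1 member then had 10 UMIs), and in the replicate 1 and the replicate 2 plates alone, and 1 to 2 when 1 plate was left out. It was 3, with *Kdr* added, with a minimum of 500 UMIs, spike-ins counted or class by marker lists. An equal count did not mean the same member. The 1 member was *Flt1* in the replicate 1 plates and *Kdr* in the replicate 2 plates. Without Gpr124 fl/fl replicate 1 the 2 members were *Kdr* and *Flt4*, and the *Flt1* interval held equal levels. In pericytes the count was 1, and 1 in each plate left out, 2 with no maximum (*Tie1* added), and 0 with class by marker lists, with both-marker wells added (an alternative chosen after seeing the data) and with cells thinned, where 0 members had 10 UMIs. Weighting cells equally gives no interval. The replicate 1 plates alone, and all without Gpr124 dEC/dEC replicate 2, gave no pericyte comparison. No called ratio changed sign in any alternative run.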

Other observations

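In wells over 8000 UMIs with *Pdgfrb*, *Tie1* had 0 UMIs in 3 wells of Gpr124 fl/fl and 16 in 5 wells of Gpr124 dEC/dEC, of which 10 lay in 1 well. That well also held 2 UMIs of *Angpt1* and 147 UMIs of pericyte markers beside 17 of endothelial markers. *Angpt2* had 9 UMIs in the 3 wells and 11 in the 5 wells, a log2 ratio of Gpr124 fl/fl over Gpr124 dEC/dEC of 0.26 (-1.19 to 1.67). All 8 of these wells held at least 1 UMI of *Angpt2*.

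*Vegfa*, at 0 in the 32 cells, had 2 UMIs in the wells with neither marker, 1 in a well over 8000 UMIs without *Pdgfrb* and 7 in wells under 1000 UMIs, a level of 0.310 per 10000 there (0.125 to 0.639). These values have no class, and no comparison was made with them.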
